A study of Sus scrofa with 20 samples.

Results

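The genes described here are interferon-stimulated genes, measured in the caecal mucosa of 20 pigs. The list held 49 gene symbols, and a gene was kept where the platform annotation gave its symbol to at least 1 probeset with values. Of the 49 genes, 43 had a symbol on the array and 34 had values, out of 10567 named genes in all. The other 15 genes (ISG20, IRF1, IRF7, IRF8, IFI44L, IFITM1, IFITM3, HERC5, HERC6, PARP9, SAMD9, XAF1, CXCL11, UBA7 and SP110) were not analysed here. The 34 genes were covered by 57 probesets, and the probeset with the highest mean over all pigs stood for its gene. All 34 of these probesets passed the filter on dim probesets, which removed means under 1.62 on the log2 scale.

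Interferons are cytokines that cells release when they sense viral or bacterial nucleic acids. Type I and type III interferons act through the kinases JAK1 and TYK2 on a complex that includes STAT2 and IRF9, which switches on antiviral genes, whereas interferon gamma, made by T cells and natural killer cells, strongly induces guanylate-binding proteins and the chemokines CXCL9, CXCL10 and CXCL11. Many genes answer to both signals. In the gut of mice, the microbiota is known to keep up a low level of such genes without infection.

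The tested animals were 10 pigs of high feed efficiency, which eat less than their growth and body composition predict (a low residual feed intake, or RFI), and they were set against 10 pigs of low feed efficiency (high RFI). All were untreated finisher pigs bred from Large White and Landrace, and they were the most divergent animals of their litter and sex. They came from 5 litters, named by the sows 1406, 1410, 1411, 1417 and 1435, and each litter gave a pair of 1 male and 1 female to either group. Litters were kept whole in pens according to the study's methods, so litter and pen cannot be told apart, and the slaughter batch of a pig is not given in the labels. Mucosa was scraped from the tip of the caecum, which yields a mixture of epithelial, immune and stromal cells, and fewer cells of a type cannot be told apart from less RNA per cell in such samples. No deposited table used here holds a sequence of these genes or of their probes.

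Transcript abundance was read on 1 array per pig, and the deposited values are log2 values after robust multichip averaging, so that a difference of 1 stands for a doubling. The upper quartile of the arrays lay between 6.25 and 6.30. The epithelial keratins KRT8 and KRT20 and the goblet cell mucin MUC2 had means of 12.31, 11.99 and 10.23 in high feed efficiency. In low feed efficiency they were at 12.34, 12.13 and 10.16. The colonocyte marker AQP8 was lower, at 4.90 in high and 4.82 in low feed efficiency. The bright markers fit an intestinal mucosa, but no other gut segment was compared, so the caecal label was not tested. With the interferon-stimulated genes left out, the leading principal component took up 17.5% of the array variance and went with the number that names each pig, with a Pearson r of 0.871 given as a description. The score defined below had an r of 0.466 with this component and of 0.301 with the pig number over the 20 pigs, and the pigs of sows 1417 and 1435 held the highest pig numbers (425 to 440, against 401 to 420 in the other litters).

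To find which pigs carried the signal, a score was formed for each pig by centring each of the 34 genes on its mean over all pigs and averaging the centred log2 values. The low-efficiency male of sow 1411 had the highest score, at 1.01, and the high-efficiency female of sow 1417 followed at 0.47. At the other end stood the low-efficiency male of sow 1406 at -0.86 and the low-efficiency female of the same sow at -0.49. Both extremes were thus pigs of low feed efficiency. The male of sow 1411 held the highest value of all pigs for 17 of the 34 genes and was above the mean for 31, whereas the male of sow 1406 held the lowest value for 14 and was above the mean for 2.

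**Figure D1:**
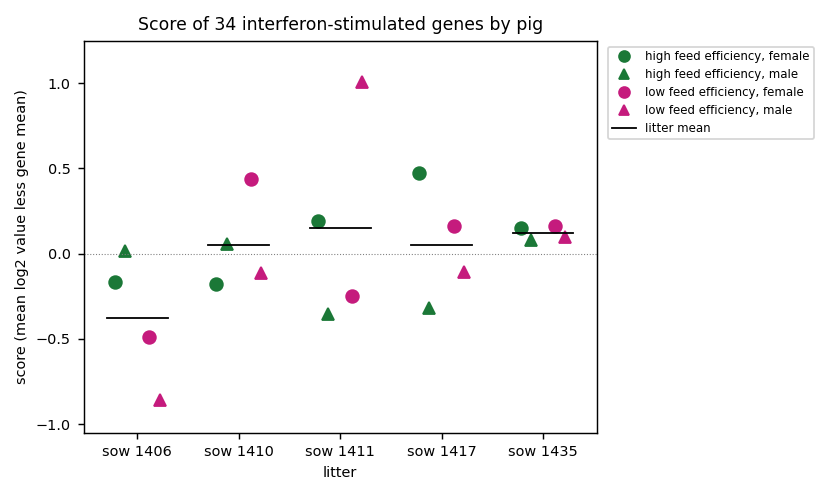
Score of the 34 interferon-stimulated genes (mean log2 value less the gene mean, vertical axis) for each pig by litter (horizontal axis). High-efficiency pigs (green) stand left of low-efficiency pigs (magenta), circles are females, triangles are males, and black lines are litter means. The low-efficiency male of sow 1411 lies at 1.01 and the low-efficiency male of sow 1406 at -0.86, while the litter of sow 1435 spans 0.08 to 0.16.

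The RNA sensors were among the genes that set the male of sow 1411 apart. DDX58 encodes RIG-I, which detects viral RNA with a free triphosphate end, and its log2 level was 7.73 in this pig, 5.08-fold over the gene mean. Over the groups, its lowest, median and highest values were 4.74, 5.09 and 5.91 in high and 4.49, 5.25 and 7.73 in low feed efficiency, so that the groups overlapped, with 2 low-efficiency pigs above all high-efficiency pigs. EIF2AK2, the kinase PKR that halts translation on double-stranded RNA, was 2.45-fold over its mean there, at 6.94. DHX58, which encodes the regulator LGP2, had its maximum in the same pig, at 6.69, and its minimum in the low-efficiency male of sow 1406, at 5.06. IFIH1, the sensor MDA5 for long double-stranded RNA, went another way and was at 1.38 in the male of sow 1411. Its lowest, median and highest values were 1.07, 3.61 and 4.91 in high and 1.07, 2.74 and 4.17 in low feed efficiency, and in 4 pigs it lay under the filter bound of 1.62. ZBP1, a sensor of Z-form nucleic acid, varied least of the 34 genes by its brightest probeset, with an SD over pigs of 0.15. Its other probesets, with means of 5.73 and 6.24, had SDs of 0.41 and 0.39, so the low spread holds for that probeset only.

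**Figure D2:**
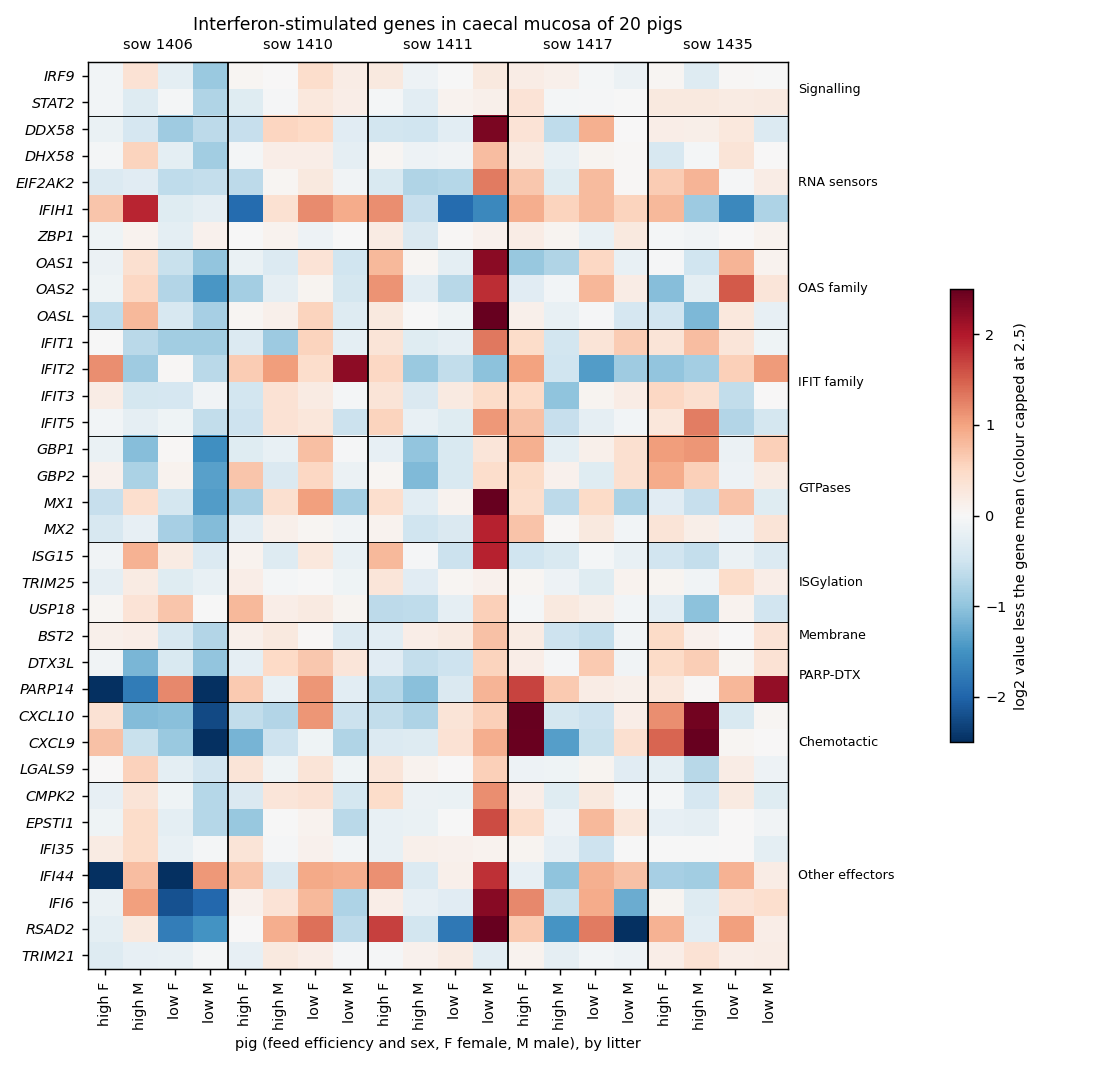
Log2 value less the gene mean (colour, capped at 2.5) for 34 interferon-stimulated genes (rows, grouped by role) in 20 pigs (columns, by litter, with high-efficiency pigs left of low-efficiency pigs and F and M for female and male). The column of the low-efficiency male of sow 1411 is red across OAS1, OAS2, OASL, MX1, MX2, ISG15, DDX58 and RSAD2, and CXCL9 and CXCL10 are highest in the high-efficiency female of sow 1417 and the high-efficiency male of sow 1435.

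OAS1 and OAS2 encode enzymes of the 2′-5′-oligoadenylate pathway, which triggers RNA decay on viral infection. These genes and the related OASL varied together. The mean correlation among OAS1, OAS2 and OASL was 0.772 over 20 pigs. Without the low-efficiency male of sow 1411 the r was 0.777 for OAS1 and OAS2, 0.564 for OAS1 and OASL and 0.510 for OAS2 and OASL. OAS1 had a lowest, median and highest value of 7.13, 7.91 and 8.89 in high and 7.09, 8.02 and 10.32 in low feed efficiency. The maximum was again the male of sow 1411, 4.76-fold over the gene mean, and OASL was 6.01-fold and OAS2 3.61-fold over the mean in that pig. The minimum of OAS1 and of OAS2 (4.26) was the low-efficiency male of sow 1406. The minimum of OASL, at 4.14, was the high-efficiency male of sow 1435.

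The GTPases MX1 and MX2, which restrict many viruses, followed the same pig. MX1 had values of 5.62, 6.16 and 6.87 (lowest, median, highest) in high and 5.03, 6.32 and 9.33 in low feed efficiency, and the next highest pig after the male of sow 1411 was the low-efficiency female of sow 1410, at 7.44. MX2 was at 6.69, 7.25 and 7.91 in high and at 6.10, 7.11 and 9.11 in low feed efficiency. MX2 had the highest mean correlation with the other genes, at 0.501. The guanylate-binding proteins GBP1 and GBP2, which attack intracellular bacteria and parasites, were highest in the 1435 litter instead, with GBP1 at 11.26 in the high-efficiency male and GBP2 at 8.56 in the high-efficiency female. In the male of sow 1411 they were 1.23-fold and 1.36-fold over their means. The minimum of both was the low-efficiency male of sow 1406, at 8.63 and 6.27.

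RSAD2 encodes viperin, which makes a chain-terminating ribonucleotide, and it varied most of all 34 genes. Its log2 values in high feed efficiency had a lowest of 4.77, a median of 6.37 and a highest of 7.95, and those in low feed efficiency were 2.73, 6.004 and 9.64, a span of 6.91 over all pigs. The male of sow 1411 was 10.5-fold over the mean, and the lowest value belonged to the low-efficiency male of sow 1417. CMPK2, the mitochondrial nucleotide kinase encoded next to RSAD2, spanned 1.88, with a maximum of 7.35 in the male of sow 1411. IFI6, an inhibitor of viral replication at the endoplasmic reticulum, was at 6.53, 7.17 and 8.28 in high and at 4.90, 7.11 and 9.36 in low feed efficiency, and it was lowest in the low-efficiency female of sow 1406. EPSTI1 was 3.11-fold over its mean in the male of sow 1411.

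IFI44 was at 2.81, 4.95 and 6.46 in high and at 1.24, 6.20 and 7.13 in low feed efficiency. Its low values came from the females of sow 1406, at 2.81 in high and 1.24 in low feed efficiency, while the males of that litter were at 6.08 and 6.39, close to the other litters. IFI35 and the ubiquitin ligase TRIM21, which recognises antibody-coated viruses in the cytosol, varied little, with SDs of 0.21 and 0.20. TRIM21 had a mean correlation of 0.03 with the other genes and a negative r of -0.65 with USP18.

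ISG15, a ubiquitin-like protein that is attached to targets, was at 5.97, 6.36 and 7.42 in high and at 6.02, 6.39 and 8.48 in low feed efficiency. The male of sow 1411 was 3.79-fold over the mean. TRIM25, a ligase that also activates RIG-I, spanned 0.77. USP18, the protease that removes ISG15 and dampens type I interferon receptors, was at 5.07, 6.09 and 6.90 in high and at 5.60, 6.17 and 6.78 in low feed efficiency, and its mean correlation with the other genes was 0.01. BST2, the tether that retains budding virus at the membrane, was highest in the male of sow 1411, at 7.40. Of the factors that carry the interferon signal, STAT2 and IRF9 were measured, and both were lowest in the low-efficiency male of sow 1406, at 7.04 and 7.53, with a correlation of 0.536 between them.

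In the IFIT family, whose proteins bind viral RNA, IFIT1 was highest in the male of sow 1411, at 5.30. IFIT2 was at 2.61, 3.61 and 4.77 in high and at 2.20, 3.31 and 5.84 in low feed efficiency, was highest in the low-efficiency male of sow 1410, and had a mean correlation of -0.01 with the other genes. IFIT5 was highest in the high-efficiency male of sow 1435, at 4.83, with the male of sow 1411 next at 4.63. IFIT3 spanned 1.53, from 3.45 in the high-efficiency male of sow 1417 to 4.98 in the high-efficiency female of sow 1435. IFIT3 and IFIT5 had an r of 0.726, IFIT1 and IFIT5 of 0.614 and IFIT1 and IFIT3 of 0.531, whereas the r of IFIT2 with these genes lay between -0.20 and 0.02.

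The chemokines CXCL9 and CXCL10, which attract T cells and natural killer cells through CXCR3, were carried by other pigs. CXCL9 was at 4.71, 5.75 and 8.94 in high and at 3.53, 6.04 and 6.998 in low feed efficiency. The highest values were 8.94 in the high-efficiency male of sow 1435, 8.56 in the high-efficiency female of sow 1417 and 7.55 in the high-efficiency female of sow 1435, followed by 6.998 in the low-efficiency male of sow 1411. CXCL10 was at 4.95, 5.52 and 8.84 in high and at 3.78, 5.87 and 7.14 in low feed efficiency, and its maximum was the female of sow 1417. Both were lowest in the low-efficiency male of sow 1406. LGALS9, the lectin galectin-9, was at 11.22 in the male of sow 1411 and had its lowest value, 9.94, in the high-efficiency male of sow 1435, the pig with the highest CXCL9.

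Over the 20 pigs the mean correlation between pairs of interferon-stimulated genes was 0.302, against 0.011 between all pairs of the 10346 named genes above the filter bound. Of the 561 pairs, 82.7% were above 0 and 27.8% had an r of 0.5 or more, against 51.8% and 5.34% of all pairs of genes. These are descriptions over pigs that share litters, arrays and the leading component. With values centred on their litter the mean was 0.314. Without the male of sow 1411 it was 0.245, without the low-efficiency male of sow 1406 it was 0.252 and without both 0.172, against 0.012 for all genes in those 18 pigs. Within the high-efficiency pigs it was 0.157 and within the low-efficiency pigs 0.415, or 0.242 in the 8 low-efficiency pigs left without both males.

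**Figure D3:**
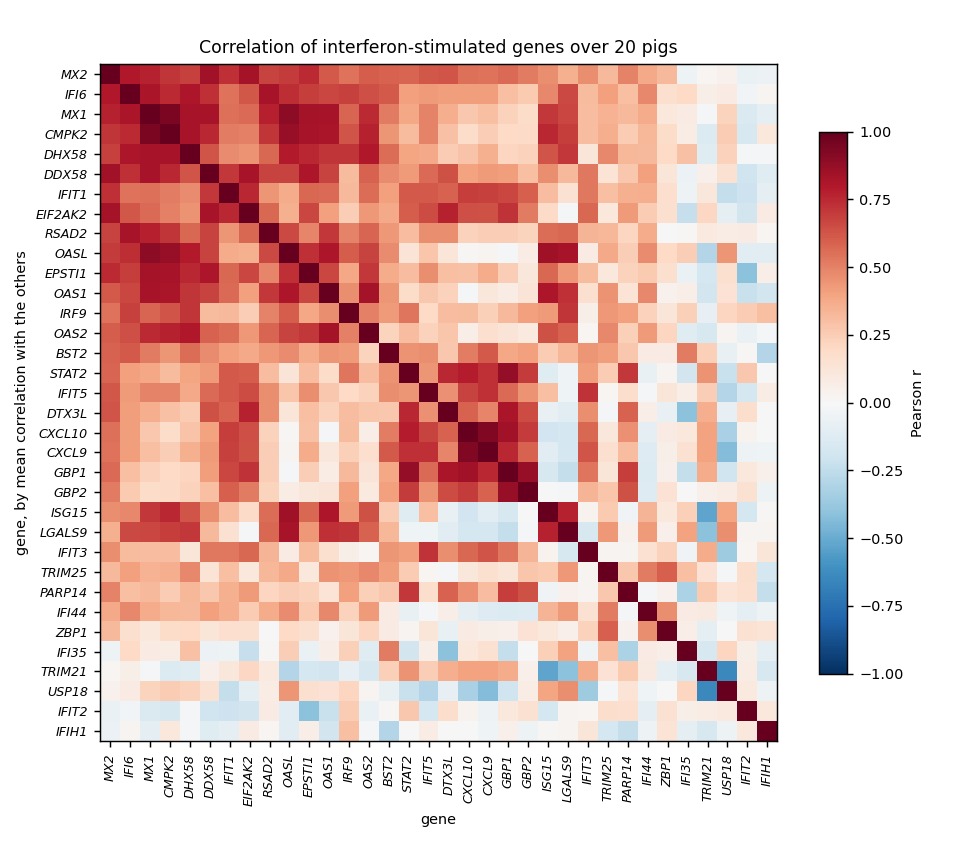
Pearson correlation (colour) over 20 pigs between each pair of 34 interferon-stimulated genes, ordered by their mean correlation with the others. MX2 at the top has a mean of 0.501, and IFIT2 and IFIH1 at the bottom have means of -0.01 and -0.02. A dark square joins STAT2, IFIT5, DTX3L, CXCL9, CXCL10, GBP1 and GBP2. Genes outside it also went with its genes, as EIF2AK2 did with DTX3L (0.769).

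The strongest pair was MX1 and CMPK2, with an r of 0.945, and 0.907 without the male of sow 1411. CXCL9 and CXCL10 followed with 0.926, and 0.926 without that pig. MX1 went with OASL (0.898) and ISG15 with OASL (0.845), and these were 0.760 and 0.616 without that pig. STAT2 went with GBP1 (0.876), and GBP1 with CXCL10 (0.839) and with DTX3L (0.818), a ubiquitin ligase partner of PARP9. Without that pig these were 0.874, 0.837 and 0.822. Between these sets of genes the correlations were lower. They were 0.297 for MX1 and CXCL9, 0.231 for MX1 and GBP1, 0.024 for OASL and CXCL9 and -0.19 for ISG15 and CXCL10. In the same order they were 0.260, 0.231, -0.19 and -0.42 without that pig. Over all pigs MX2 went with genes of both sets, with 0.766 for MX1, 0.711 for CMPK2, 0.696 for OASL, 0.469 for ISG15 and 0.565 for GBP1. Without the male of sow 1411 the r of MX2 was 0.486 with MX1, 0.448 with CMPK2, 0.253 with OASL and -0.19 with ISG15. With GBP1 it was 0.732. The correlations of MX2 with the set of MX1 thus depended much on that pig, and its correlation with GBP1 did not. These pairs were picked after their values were seen. Of the 34 genes, 22 had an r of 0.5 or more with the mean of the other 33, with a median of 0.602. The highest mean correlations were those of MX2 (0.501), IFI6 (0.476), MX1 (0.472) and CMPK2 (0.455), and the lowest were those of IFIH1, IFIT2, USP18 and TRIM21.

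**Figure D4:**
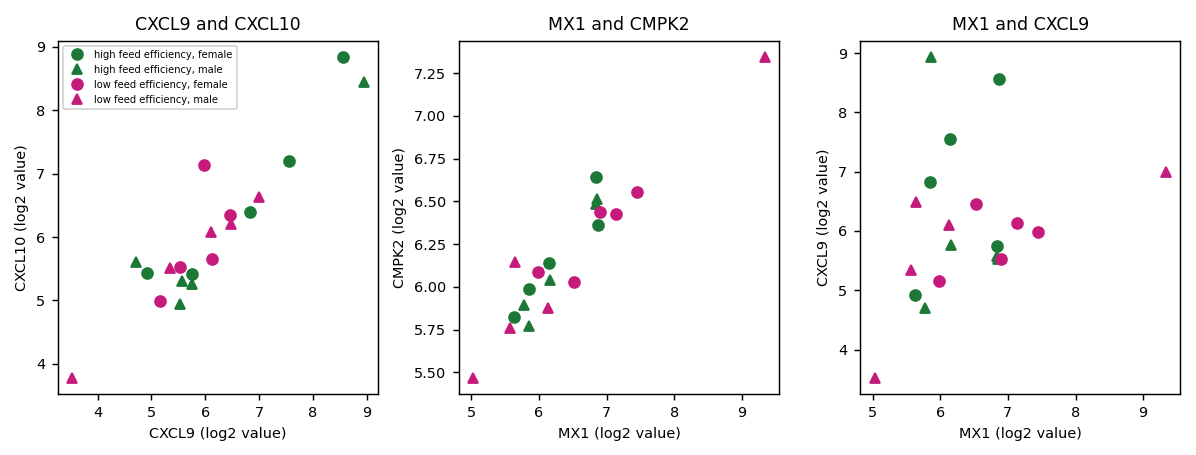
Log2 values of CXCL9 against CXCL10, of MX1 against CMPK2 and of MX1 against CXCL9 in 20 pigs (green high, magenta low feed efficiency, circles females, triangles males). The first 2 panels follow a line (r of 0.926 and 0.945), while in the last panel (r of 0.297) the low-efficiency male of sow 1411 has the highest MX1 at 9.33 and the high-efficiency male of sow 1435 the highest CXCL9 at 8.94 with an MX1 of 5.86.

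Several of these genes lie side by side in the Sscrofa11.1 assembly. Of the 33 genes with a position, 9 pairs were less than 200 kb apart, and their mean correlation was 0.561. MX2 and MX1 lie on chromosome 13 between 204798633 and 204868927 and had an r of 0.766, OAS2 and OAS1 on chromosome 14 between 38827667 and 38867427 had 0.834, and RSAD2 and CMPK2 on chromosome 3 between 128880853 and 128917873 had 0.718. GBP2 and GBP1 on chromosome 4 between 127387222 and 127442132 had 0.868, and the chemokine pair on chromosome 8 lies between 71665541 and 71695948. Without the low-efficiency male of sow 1411 the r was 0.486 for MX2 and MX1, 0.777 for OAS2 and OAS1 and 0.586 for RSAD2 and CMPK2. It stayed at 0.868 for GBP2 and GBP1. Not all neighbours went together. IFIT2 lies on chromosome 14 from 101193421 to 101204292 beside IFIT3 (r of 0.02) and near IFIT1 (r of -0.20), and neighbouring paralogs can share probes, which was not tested.

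The choice of probeset mattered for some genes. There were 16 genes with more than 1 probeset, and the 23 further probesets had a median correlation of 0.649 with the brightest one of their gene. Agreement was close for GBP1 (0.990), DDX58 (0.931 and 0.827), BST2 (0.920 and 0.873) and LGALS9 (0.960 and 0.933, and 0.206 for the dimmest). It was poor in OAS1 (0.166), in IFIT5 (0.062 for its dimmest probeset, and 0.669 for the other), in DHX58 (0.190), in ZBP1 (-0.04 for 1 of its probesets) and in PARP14, where the dimmer probeset had an r of -0.26 and an SD of 0.12 against 1.31 for the brighter. Values of PARP14 thus rest on a single probeset, at 1.38 in the low-efficiency male and 1.72 in the high-efficiency female of sow 1406.

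The main comparison of the study asked how pigs of high and low feed efficiency differ. The score of the interferon-stimulated genes averaged -0.0048 ± 0.25 in high and 0.0048 ± 0.51 in low feed efficiency (SD, n = 10 each), with a lowest, median and highest of -0.36, 0.04 and 0.47 in high and -0.86, -0.0055 and 1.01 in low feed efficiency. The groups overlapped fully, since all high-efficiency pigs lay within the range of the low-efficiency pigs. Between littermates of 1 sex, the high-efficiency pig was higher in 5 of 10 pairs, with differences that reached from -1.37 in the males of sow 1411 to 0.87 in the males of sow 1406. The SD of the log2 value was larger in low feed efficiency for 23 of the 34 genes (67.6%, against 46.3% of all named genes), and for 12 of 34 without the males of sows 1411 and 1406 (against 42.7% of all named genes), when the SD of the score in low feed efficiency was 0.29.

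With limma and sow in the model, 0 of the 34 genes passed an adjusted p of 0.05, and so did 0% of the 23837 probesets tested. At an unadjusted p under 0.05 the count was also 0 of 34, where 4.39% of all probesets passed. The log2 differences had a median of 0.0011 and ranged from -0.70 to 0.64, and 18 of the 34 genes were above 0, against 52.8% of all named genes with a median of 0.0085. Leaving out 1 litter at a time, the number above 0 lay between 9 of 34 without the litter of sow 1406 (median -0.15, against 0.0090 over all probesets) and 21 of 34 without that of sow 1411 (median 0.03, against -0.0053). The groups overlapped for each of the 34 genes. The same count was not made over all named genes, so it does not set these genes apart. Depth does not enter such values, but the number of pigs does, and the 95% interval of a difference reached less than 0.5 to either side for 16 genes and 1 or more for 2 (IFI44 and RSAD2).

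Among the genes with a higher mean in high feed efficiency, the smallest p belonged to IFI35, a partner of NMI in interferon signalling, with lowest, median and highest values of 6.65, 6.89 and 7.32 in high and 6.35, 6.83 and 6.97 in low feed efficiency (log2 difference 0.15 ± 0.09 SE, limma unadjusted p = 0.123). CXCL9 averaged 6.41 ± 1.49 in high and 5.77 ± 0.97 in low feed efficiency (SD, n = 10 each) and differed by 0.64 ± 0.47 (SE). The high-efficiency pig was higher in 6 of 10 pairs. IFIH1 averaged 3.29 ± 1.12 in high and 2.69 ± 1.15 in low feed efficiency, a difference of 0.60 ± 0.44 (SE), and IFIT5 3.71 ± 0.59 in high and 3.38 ± 0.53 in low feed efficiency, a difference of 0.33 ± 0.25 (SE), with its second probeset at 0.09. None of these differences passed the test, and the limma adjusted p was 0.983 for each.

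Among those with a lower mean in high feed efficiency, PARP14, an ADP-ribosyltransferase, averaged 3.99 ± 1.25 in high and 4.59 ± 1.36 in low feed efficiency (log2 difference -0.59 ± 0.44 SE). IFI44 averaged 4.96 ± 1.06 in high and 5.66 ± 1.62 in low feed efficiency, and the high-efficiency pig was higher in 2 of 10 pairs (-0.70 ± 0.54 SE). USP18 differed by -0.20 ± 0.17 (SE) and OAS1 by -0.32 ± 0.29 (SE), with the dimmer OAS1 probeset at 0.37. The limma adjusted p was 0.983 for all of them. For CXCL9 the interval of the difference was -0.36 to 1.64, and for IFI44 it was -1.85 to 0.45, so that sizeable differences in either gene could not be told from 0 with these pigs.

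**Figure D5:**
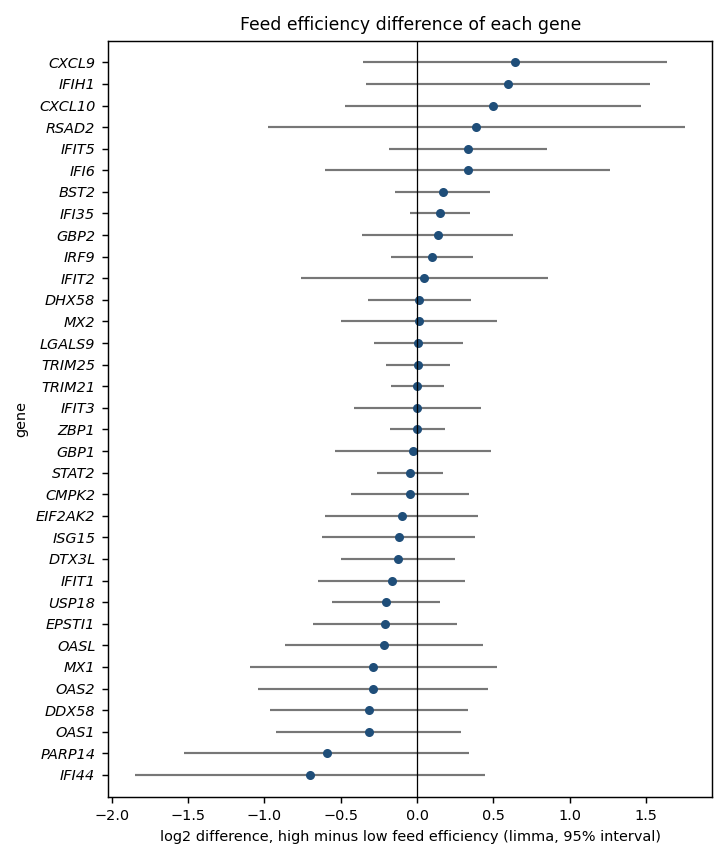
Log2 difference between high and low feed efficiency (high minus low, horizontal axis) for each of 34 interferon-stimulated genes, with the 95% interval from limma with sow in the model (10 pigs per group). All intervals include 0, and the points run from -0.70 for IFI44 to 0.64 for CXCL9.

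By litter, the score was lowest in the offspring of sow 1406, at -0.38 ± 0.38 (SD, n = 4), and highest in that of sow 1411, at 0.15 ± 0.62, where a single pig stood at 1.01 and the others between -0.36 and 0.19. The litter of sow 1435 was the most uniform, at 0.12 ± 0.04, and those of sows 1410 and 1417 were at 0.05 ± 0.28 and 0.05 ± 0.34. The litter means spanned 0.53. The share of variance between litters had a median of 27.4% over the 34 genes, against 28.3% over all named genes. With limma and a test over the 5 sows, 0 of 34 genes passed an adjusted p of 0.05, where 0.126% of all probesets did, and 3 genes had an unadjusted p under 0.05, where 16.1% of all probesets did.

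These 3 genes were DTX3L, GBP1 and PARP14. DTX3L had values of 6.60, 5.55, 6.31 and 5.69 among the offspring of sow 1406 and of 7.17, 7.31, 6.74 and 7.06 among those of sow 1435, with the high-efficiency pigs of each litter given ahead of the low-efficiency pigs and females ahead of males (limma unadjusted p = 0.0122, adjusted p = 0.214). All pigs of sow 1435 were above all pigs of sow 1406, and the litters of sows 1410, 1411 and 1417 averaged 7.004, 6.47 and 6.86. In the same order, GBP1 had values of 9.99, 9.09, 10.19 and 8.63 (sow 1406) and of 11.20, 11.26, 10.01 and 10.75 (sow 1435), which overlapped (limma adjusted p = 0.249). PARP14 averaged 2.79 ± 1.87 in the litter of sow 1406 and 5.12 ± 0.97 in that of sow 1435 (SD, n = 4 each, limma adjusted p = 0.259). STAT2 averaged 7.50 ± 0.33 (sow 1406) and 8.02 ± 0.02 (sow 1435), TRIM21 5.81 ± 0.11 (sow 1406) and 6.22 ± 0.10 (sow 1435), and USP18 5.66 ± 0.46 (sow 1435) and 6.40 ± 0.34 (sow 1410), with limma adjusted p values of 0.326, 0.344 and 0.322.

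Without the litter of sow 1406, 0 of the 34 genes had an unadjusted p under 0.05 in the test over sows (11.2% of all probesets), and without the low-efficiency male of that litter 1 gene did (13% of all probesets). Without the low-efficiency male of sow 1411 the number was 9 (17.8% of all probesets), among them MX2 and EIF2AK2. With the pig number as a covariate it was 1 (7.96% of all probesets). An adjusted p under 0.05 was reached in none of these fits.

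Males were compared with females in a model that held sow and efficiency group. The score averaged -0.05 ± 0.47 in males and 0.05 ± 0.31 in females (SD, n = 10 each). With limma, 0 of 34 genes passed an adjusted p of 0.05 (0% of all probesets), and 0 had an unadjusted p under 0.05 (4.29% of all probesets, 2.61% higher and 1.69% lower in males). The smallest p was that of GBP2, which averaged 7.43 in males and 7.83 in females (log2 difference -0.40 ± 0.22 SE, unadjusted p = 0.0867, adjusted p = 0.99986). The test of whether the feed efficiency difference itself differed between the sexes gave 0 of 34 genes at an adjusted p of 0.05 (0% of all probesets) and 0 of 34 at an unadjusted p under 0.05 (4.14% of all probesets, 2.07% in either direction).

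The remaining genes of the pathway were taken from 4 lists of 97 genes, of which 54 were measured. With limma, 0 of them passed an adjusted p of 0.05 for feed efficiency. At an unadjusted p under 0.05, 1 was higher and 2 were lower, where 2.51% and 1.88% of all probesets were. These were PARP10, at 5.65 ± 0.17 in high and 5.46 ± 0.21 in low feed efficiency, and STAT4, a transducer of interleukin signals in T cells, at 3.13 ± 0.43 in high and 3.49 ± 0.34 in low feed efficiency, together with TDRD7, at 7.05 ± 0.26 in high and 7.25 ± 0.31 in low feed efficiency (SD, n = 10 each, limma adjusted p = 0.983 for all). PSMB9, a subunit of the immunoproteasome, differed by 0.24 ± 0.12 (SE), the interferon gamma receptor chain IFNGR1 by -0.24 ± 0.16, the adaptor MYD88 by 0.13 ± 0.08, the RNA sensor TLR3 by -0.26 ± 0.18 and the kinase IKBKE by -0.10 ± 0.14. The STAT inhibitor PIAS1 differed by -0.21 ± 0.11 and the phosphatase PTPN2 by -0.14 ± 0.09, and the interferon genes IFNE and IFNK, both dim, by -0.15 ± 0.09 and -0.14 ± 0.18 (SE).

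Between litters, 11 of the 54 genes had an unadjusted p under 0.05, where 16.1% of all probesets did, and 0 passed the adjustment. IRF4, a factor of plasma cells and activated lymphocytes, had the smallest p and ranged between a mean of 8.16 in the litter of sow 1435 and 8.74 in that of sow 1411 (limma adjusted p = 0.106). The RNA sensor TLR8 averaged 5.17 (sow 1406) and 6.27 (sow 1435, limma adjusted p = 0.144), and the type I receptor chain IFNAR1 at 6.43 (sow 1406) and 7.36 (sow 1417, limma adjusted p = 0.225). IFNG, which encodes interferon gamma, was dim, with litter means between 2.48 and 3.13, and had an r of 0.120 with the score, whereas IFNAR1 had 0.640 and IKBKE -0.60. Of the other interferon-stimulated genes, TDRD7 had the smallest p and averaged 6.81 (sow 1411) and 7.43 (sow 1435, limma adjusted p = 0.143). It was thus lowest in another litter than that of sow 1406. DDX60 averaged 5.76 (sow 1406) and 7.17 (sow 1435), and the cytokine gene TNFSF13B 5.01 (sow 1406) and 5.74 (sow 1417). Their limma adjusted p values were 0.242 and 0.213. PTPN2 (0.290), the receptor chain IL10RB (0.293), the mitochondrial regulator NLRX1 (0.307) and the kinases TBK1 (0.345) and JAK1 (0.351) had larger adjusted p values over sows in limma.

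Of the 10312 further named genes, the 8 with the highest correlation with the score over 20 pigs were RTP4 (0.875), ZNFX1 (0.835), AGFG1 (0.795), DDX60 (0.782), UBE2L6 (0.780), RCBTB2 (0.745), SP140 (0.744) and ADAR (0.726). Of these, RTP4, the RNA helicases ZNFX1 and DDX60, the ISG15-conjugating enzyme UBE2L6 and the RNA-editing enzyme ADAR were on the list of other interferon-stimulated genes. The highest value belonged to the low-efficiency male of sow 1411 in all but RCBTB2. RTP4 was at 5.83 in that pig and at most 5.41 in the others. Without that pig the correlations of the 8 genes with the score were between 0.643 and 0.813. The genes had been picked by their correlation over all 20 pigs, so high values are likely here too.

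Lists of markers for the cells that a mucosal scraping can hold were set against the score, and none reached a correlation of 0.5 in size over the 20 pigs. The nearest were B cells (0.467), macrophages and dendritic cells (0.455), T and natural killer cells (0.356), fibroblasts (0.351) and, with the opposite sign, neutrophils (-0.41), goblet cells (-0.38) and smooth muscle (-0.38). Single markers of a list did not all go the same way. Among those of macrophages and dendritic cells the median r was 0.188, with CD14 at -0.08 and BATF3 at -0.23. For B cells the median r was 0.360 and for T and natural killer cells 0.248. Of 80 single markers, 11 had an r of 0.5 or more in size. Above 0 these were the complement genes C1QA (0.696) and C1QC (0.690) of macrophages, the B cell genes BANK1 (0.600) and MS4A1 (0.577), the T cell kinase LCK (0.530) and the cell cycle gene TOP2A (0.529), and below 0 they were ASCL2 (-0.66), MPO (-0.60), SDC1 (-0.56), MCM2 (-0.55) and MUC2 (-0.51), all picked after their values were seen. Of 21 T and natural killer cell markers 18 were measured, and their mean log2 level ranged between 6.03 and 6.50 in high and between 5.69 and 6.45 in low feed efficiency. For macrophages and dendritic cells 9 of 14 markers were measured, with a mean level of 6.84 to 7.50 in high and 6.78 to 7.19 in low feed efficiency, and 5 of the 9 were higher in high feed efficiency at an unadjusted p under 0.05 in limma. The same held for 4 of the 18 T and natural killer cell markers, where 2.51% of all probesets were higher, and 0 markers passed the adjustment. For B cells 6 of 10 were measured, with 6.50 to 7.61 in high and 6.03 to 8.11 in low feed efficiency. Of these 6, 5 had an unadjusted p under 0.05 over sows in limma, where 16.1% of all probesets did. MS4A1, which encodes CD20, averaged 5.82 among the offspring of sow 1406 and 8.25 among those of sow 1435 (limma adjusted p = 0.0397). CD79B, BANK1 and CD22 were also lowest in the litter of sow 1406, whereas CD79A and PAX5 were lowest in that of sow 1410. All B cell markers but MS4A1 were highest in the litter of sow 1411. Only 3 of 8 markers of plasmacytoid dendritic cells, the main makers of type I interferon in blood, were measured (PLD4, GZMB and PTCRA). Their r with the score was -0.09. PLD4 and GZMB, 2 of the 3, were higher in high feed efficiency at an unadjusted p under 0.05 in limma, where 2.51% of all probesets were. GZMB also stands on the list of T and natural killer cells and is counted there too. The part of the listed cell types in the levels of the interferon-stimulated genes was not tested.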

How the data were processed

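The deposited log2 values had been made by the authors. Per the study's methods, RNA of caecal mucosa was hybridised to the Affymetrix porcine snowball array, probesets were redrawn on Sscrofa11.1 in a layout file made for this array, and arrays were normalised together by robust multichip averaging, a step that removes differences common to all transcripts of an array and can compress those of dim probesets. The submitters' processing notes name GCOS 1.1.1. Of 47845 rows, the 25092 with values in all 20 columns were used, and 0 columns were unmatched. The number of arrays limits the precision.

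Probesets were named from the platform annotation, which is older than the layout, and 328 outdated symbols were replaced through synonyms in the RefSeq table of Sscrofa11.1, which also gave positions. In the end 16361 probesets carried 1 symbol, 0 carried several and 8731 carried none. The genes, lists and tests described here were chosen with earlier results of these data known.

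Models were fitted with limma 3.58.1 in R 4.3.3 on the 23837 probesets with a mean at or above the 5% quantile (1.62), with two-sided tests and Benjamini-Hochberg adjustment over all of them. Sow was in the model for feed efficiency, sow and feed efficiency for sex, and feed efficiency and sex for the F test over sows. The filter of the study on the most variable probesets would have removed 7 of the 34 genes and was used as an alternative. Slaughter batch was not analysed here. The fits were tested on simulated data. No test was made on scores or correlations. Pigs are separate animals. Genes were named by fixed rules, namely the 8 largest SDs, the 4 smallest p in each direction for feed efficiency, the 6 smallest p over sows, the 4 highest and 4 lowest mean correlations, the 8 further genes with the highest correlation with the score, and in each pathway list the 3 smallest p for feed efficiency and the 3 over sows. Further genes were described by role after their values were seen.

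Alternatives left out single pigs or litters, changed filters, covariates, scaling and the choice of probeset.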

Additional observations from a re-analysis of the deposited data

Results flagged for a closer look

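A total of 75 checks asked whether the highest or lowest pig of a group or litter stood apart from the others. Groups of 10 were checked for the score and the 19 genes named by the rules. Litters of 4 were checked for the score and the 6 genes with the smallest p over sows. A pig stood apart in 8 checks. Chance flags about 1 in 20, but the genes were picked by rules from these same values and many varied together. The 8 flags can therefore not be set against that rate. Of the 8 flags, 5 were low values of the litter of sow 1406 within low feed efficiency. The male of that litter was at 1.38 for PARP14 (next pig 3.94), at 3.53 for CXCL9 (next 5.16), at 8.63 for GBP1 (next 9.78) and at 7.04 for STAT2 (next 7.75), and the female was at 1.24 for IFI44 (next 5.43). MX2 was at 9.11 in the low-efficiency male of sow 1411, where the next low-efficiency pig was at 7.50. Within litters, STAT2 stood at 8.14 in the high-efficiency female of sow 1417 (next 7.80) and TRIM21 at 6.37 in the high-efficiency male of sow 1435 (next 6.19).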

How the results depend on the processing

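The count of genes with an adjusted p under 0.05 was 0 in all fits, namely 34 alternatives for feed efficiency, 32 for litter, 22 for sex and 20 for the interaction of feed efficiency and sex, and the smallest adjusted p of any of the 34 genes was 0.692 for feed efficiency. With the pair of sow and sex as replicate block the count for feed efficiency was 0. Numbers of the 34 genes at an unadjusted p under 0.05 were between 0 and 2 for feed efficiency, 0 and 9 for litter, 0 and 3 for sex and 0 and 1 for the interaction. Of all probesets, 3.35% to 8.19% did so for feed efficiency and 7.96% to 22.1% for litter. For sex the share was 3.75% to 5.19%, and for the interaction 3.49% to 4.71%. Leaving out 1 pig at a time gave counts of adjusted calls between 0 and 0, a score difference between -0.11 and 0.10, a range of litter means between 0.37 and 0.70 and a mean correlation between 0.245 and 0.328. Without both pigs of extreme score, an alternative chosen after seeing the data, the mean correlation was 0.172, the score difference 0.0082 and the range of litter means 0.34. The score difference was -0.16 without the litter of sow 1406 and 0.10 without that of sow 1411, so its sign is not settled. Scaling genes to unit SD, taking the median over genes or the mean of all probesets gave differences between -0.0062 and -0.0021. The filter of the study on variable probesets left 27 of the 34 genes, without RSAD2, IFI44, PARP14, CXCL9, CXCL10, IFIH1 and IFIT2.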

Other observations

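In the high-efficiency male of sow 1435, CXCL9, GBP1, IFIT5 and TRIM21 were at their highest of all 20 pigs, at 8.94, 11.26, 4.83 and 6.37, and ISG15, OASL, USP18 and LGALS9 at their lowest, at 5.97, 4.14, 5.07 and 9.94, while the score of this pig was 0.08. Scores near 0 can thus stand for opposite extremes in 1 animal.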
